A study of Mus musculus with 14 samples.

Results

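Photoreceptors are the light-sensing neurons of the retina, and the genes described here are those that specify them and those that build and run their outer segments. The list held 36 genes, grouped by known role: 8 transcription factors of photoreceptor fate, 14 components of the transduction cascade, 6 genes of its shutoff and feedback, and 8 genes of outer segment structure, protein trafficking and retinoid handling. The members were chosen with earlier results of these data known, so their counts beside those of all genes are a description. Of these, 33 had a probe set that named 1 gene, out of 12393 genes measured that way. The other 3, Nr2e3, Gngt2 and Cnga3, were not analysed here. Measured members numbered 7 fate factors, 12 transduction genes, 6 shutoff and feedback genes, and all 8 of the outer segment, trafficking and retinoid group.

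Vertebrate rods and cones arise from retinal progenitors in an ordered sequence, in which Otx2 opens the photoreceptor path, Crx and Neurod1 drive its genes, Nrl commits a precursor to the rod fate, and Thrb and Rxrg act in cones. Light bleaches an opsin, which activates the G protein transducin; transducin activates a cyclic GMP phosphodiesterase, cyclic GMP falls, and the cation channels of the outer segment close. Arrestins and the calcium sensors recoverin and the guanylate cyclase activators then end the response. In the newborn mouse, cones are already born and rods are still being made, and outer segments form only later, so most of these transcripts are measured ahead of the organelle their products build.

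Whole eyes of newborn mice, labelled as postnatal day 1, were profiled on 14 arrays, 1 per RNA sample, in 4 groups. One experiment held 4 wildtype and 4 Snf2h lens-conditional knockout (cKO) eyes on the C57BL/6 strain. The other held 3 wildtype and 3 Brg1 cKO eyes on a mixed background. Snf2h (gene Smarca5) and Brg1 (gene Smarca4) are the ATPase subunits of ISWI and SWI/SNF chromatin remodelling complexes. The labels placed the Snf2h deletion in the lens, gave no Cre driver for either line, and left unnamed the cells that lost Brg1. All 3 Brg1 cKO samples carried the same genotype label, Brg1_cKO1, while their titles numbered them 1 to 3. Nothing in the sample labels tied arrays to individual animals, so the p-values measure the spread between these samples. In RNA of a whole eye, fewer cells of a type and less RNA per cell cannot be told apart.

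Several arrays stood apart. Snf2h cKO 1 and Snf2h cKO 2 resembled each other far more than any other arrays of 1 group. The SD of their difference over all genes, with 1 probe set per gene, was 0.205 (log2) against 0.401 to 0.723 for the other pairs. The Snf2h results are therefore also given with this pair averaged as 1 sample. The 3′ minus 5′ Gapdh signal, a sign of RNA quality, moved with the Snf2h groups. It was 1.31, 1.46, 4.47 and 1.09 (log2) in the 4 Snf2h wildtype eyes and 0.97, 0.84, 0.77 and 0.99 in the 4 Snf2h cKO eyes, so every wildtype array lay above every cKO array and Snf2h wildtype 3 far above the rest. On the Brg1 arrays it was 0.63 to 0.96 with overlapping groups. The same measure for Actb overlapped between the Snf2h groups. It read 2.14, 2.18, 3.08 and 1.44 in the wildtype and 1.83, 1.70, 1.34 and 1.38 in the cKO eyes. Median intensity was 101 to 114 on all arrays. Smarca5 read 9.02 to 9.65 (log2) in Snf2h wildtype eyes and 8.72 to 9.05 in Snf2h cKO eyes, and Smarca4 read 7.75 to 8.47 in Brg1 wildtype and 7.06 to 7.92 in Brg1 cKO eyes. Whether these probe sets lie in the deleted exons is not given in the sources used here.

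Promoters of the members carried the recognition motif of CRX, the homeodomain factor that binds many photoreceptor genes, more often than promoters did in general. The window ran from 250 bases before to 50 bases after each RefSeq start (GRCm38.p6, both strands searched), and 27 of the members had at least 1 promoter there. The letters TAATCC, or GGATTA on the other strand, occurred in 11 of those 27 members (40.7%) and in 8.14% of 27025 genes. Per promoter window, this was 11 of 35 (31.4%) and 7.1% of all promoters. Of 13 matches in member windows, 12 read GGATTA on the gene's own strand and 10 lay in the 120 bases upstream of the start, in 9 members. The core TGCTGA, searched for NRL, was in 8 of 27 members (29.6%) and 21.7% of genes, and CAGATG, searched for NEUROD1, in 5 of 27 (18.5%) and 19.2%. The 120 bases upstream of the start are shown for 4 members with the match, chosen to span the roles, and for Rom1 and Tulp1, whose windows hold no match and whose values in Snf2h cKO eyes are given further on. All are written 5′ to 3′ on the gene's strand, with the match in capitals. They lie at chr7:15879956-15880075 (minus strand, Crx), chr1:87803560-87803679 (plus, Sag), chr3:108092946-108093065 (plus, Gnat2), chr3:122044340-122044459 (plus, Abca4), chr19:8929357-8929476 (minus, Rom1) and chr17:28365217-28365336 (minus, Tulp1).
Crx: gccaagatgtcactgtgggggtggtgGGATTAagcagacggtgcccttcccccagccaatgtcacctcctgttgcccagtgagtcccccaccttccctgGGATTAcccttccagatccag
Sag: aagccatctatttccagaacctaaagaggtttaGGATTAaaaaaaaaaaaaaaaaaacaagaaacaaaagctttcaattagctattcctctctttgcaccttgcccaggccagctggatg
Gnat2: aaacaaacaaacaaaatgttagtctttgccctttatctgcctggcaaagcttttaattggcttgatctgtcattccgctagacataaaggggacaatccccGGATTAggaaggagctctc
Abca4: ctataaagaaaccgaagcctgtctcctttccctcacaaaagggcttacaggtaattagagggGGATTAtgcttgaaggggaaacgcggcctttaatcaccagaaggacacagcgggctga
Rom1: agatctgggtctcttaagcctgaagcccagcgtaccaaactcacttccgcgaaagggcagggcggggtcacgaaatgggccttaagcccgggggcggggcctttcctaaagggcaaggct
Tulp1: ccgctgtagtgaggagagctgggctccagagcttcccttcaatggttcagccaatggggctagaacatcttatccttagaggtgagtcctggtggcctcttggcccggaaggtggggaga
Crx held 2 matches and the other 3 held 1 each. The 11 measured members with the motif had a median change in Snf2h cKO eyes of 0.29 (log2), and the 14 without it a median of 0.59. In Brg1 cKO eyes the same medians were 0.16 and 0.25.

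In Snf2h cKO eyes most of the 33 measured members read higher than in wildtype eyes, by a modest amount, and none passed the adjusted threshold. The change was above 0 in 28 of 33 members (84.8%), where 43.5% of all 12393 genes had a change above 0. The median change was 0.48 (log2) over the members and -0.05 over all genes. The 29 other photoreceptor genes described further on did not share this shift, with 17 above 0 (58.6%) and a median of 0.04. At an adjusted p under 0.05 (limma, Benjamini-Hochberg over all genes), 0 members were called, and 2 genes in all were called (0.0161%), 1 higher (0.00807%) and 1 lower (0.00807%). At an unadjusted p under 0.05, 14 members were higher and 0 were lower, against 8.31% and 8.62% of all genes. All 33 members entered the fit; 20 of them would pass a filter on the median level of all probe sets (log2 6.87) and 13 lie below it. In 8 members every cKO array lay above every wildtype array, which 5.5% of all genes showed in that direction: Otx2, Gnb3, Rcvrn, Guca1b, Rom1, Tulp1, Unc119 and Abca4. The reverse order was seen in 0 members and in 4.81% of all genes. Separation of this kind was not particular to the members. Of the marker lists described further on, 7 of 25 ganglion, amacrine and horizontal cell genes were higher without overlap and 1 was lower. For Muller glia genes it was 3 of 8 higher and 0 lower, and for the other photoreceptor genes 1 of 29 and 0. With Snf2h cKO 1 and 2 averaged, 30 members were above 0 and their median was 0.50. Without Snf2h wildtype 3, the array with the highest Gapdh ratio, 30 members were above 0 and the median was 0.53. Quantile normalization of all arrays gave 31 members above 0 and a median of 0.45. The Gapdh 3′ minus 5′ signal separated the same 2 groups (1.09 to 4.47 in wildtype, 0.77 to 0.99 in cKO eyes), while that of Actb overlapped between them. The part of either signal in these values was not tested.

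The 4 Snf2h cKO arrays did not contribute equally. Taken as the median over members of each array's difference from the wildtype mean, they stood at 0.25, 0.32, 0.32 and 1.0 (log2), and the 4 wildtype arrays at -0.15, 0.22, 0.16 and -0.09. All 4 cKO arrays lay above all 4 wildtype arrays on this measure, with Snf2h cKO 4 well above the rest and cKO 1 close to the highest wildtype array. Snf2h cKO 4 was the highest cKO array for 25 of 33 members (75.8%), against 30.4% of all genes. Without it, 26 members were above 0 and the median was 0.36. Summed intensity over the members ran from 13104 to 16871 in wildtype and from 18293 to 27203 in cKO eyes.

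**Figure D1:**
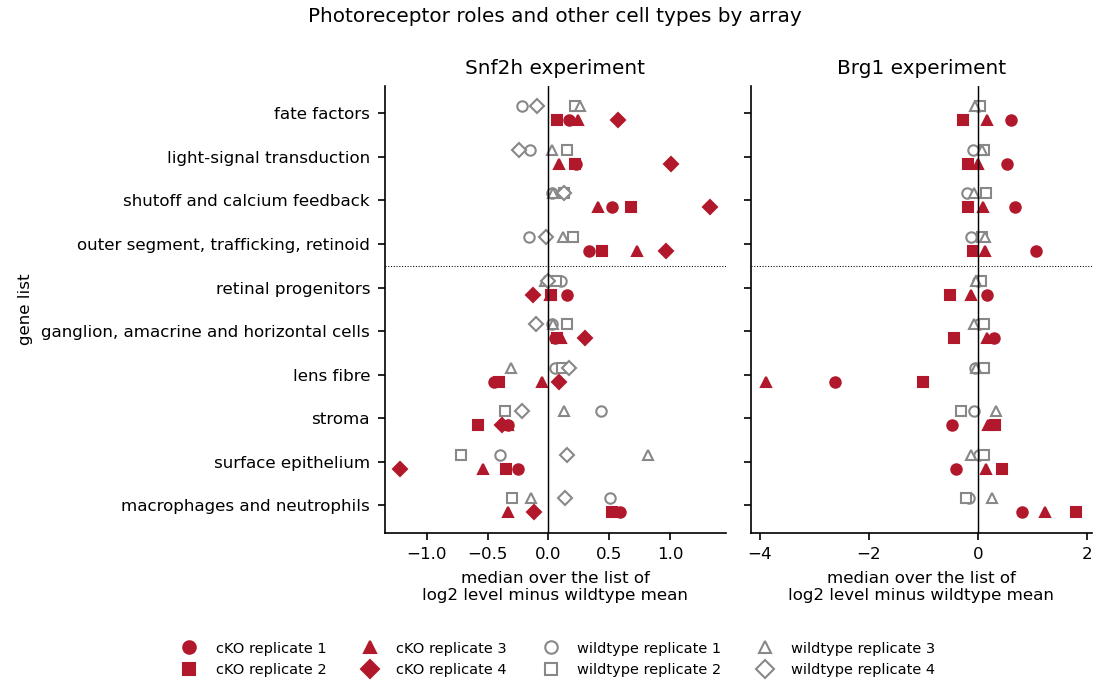
Each point is 1 array; the horizontal axis is the median over the genes of a list of that array's log2 level minus its own experiment's wildtype mean, rows are the 4 member roles (above the dotted line) and 6 lists of other cells, and the panels are the 2 experiments with separate scales (filled cKO, open wildtype). Snf2h cKO 4 lies highest in all 4 roles (1.33 for shutoff and feedback), Brg1 cKO 1 lies above its group in all 4 (1.06 for the outer segment group), and the Brg1 panel also shows the lens fibre and macrophage lists far from 0.

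Among the fate factors, the median change in Snf2h cKO eyes was 0.29 (log2), with 6 of 7 above 0. Otx2, the homeobox gene that opens the photoreceptor programme, read 10.76, 11.24, 10.96 and 11.18 (log2) in the 4 wildtype and 11.45, 11.52, 11.78 and 11.62 in the 4 cKO eyes. The groups did not overlap, and the change was 0.56 ± 0.15 (SE; n = 4 and 4; limma adjusted p = 0.169). Over the probe sets used, it was the only fate factor whose groups were separate. Crx read 9.80, 10.28, 10.47 and 9.99 in wildtype and 10.30, 10.24, 10.37 and 10.79 in cKO eyes, a change of 0.29 ± 0.19 with overlapping groups (limma adjusted p = 0.434), and 0.17 without Snf2h cKO 4. The other Crx probe set read 8.40, 9.10, 9.11 and 8.85 in wildtype and 9.17, 9.27, 9.41 and 9.70 in cKO eyes. There the groups did not overlap, by a narrow gap, and the change was 0.52 ± 0.20 (limma adjusted p = 0.226).

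Nrl, which commits precursors to the rod fate, was shaped by 1 array. It read 10.04, 10.76, 10.78 and 10.5 (log2) in wildtype eyes and 10.62, 10.69, 10.66 and 11.59 in cKO eyes. Its change was 0.37 ± 0.25 (SE; limma adjusted p = 0.465), and 0.14 without Snf2h cKO 4. Prdm1, which favours photoreceptors over bipolar cells, read 8.97, 9.43, 9.46 and 8.87 in wildtype and 9.43, 9.26, 9.74 and 9.75 in cKO eyes. The groups overlapped, with a change of 0.36 ± 0.19. Rxrg, a cone nuclear receptor, read 6.73, 6.79, 7.12 and 6.87 in wildtype and 7.09, 6.91, 7.24 and 7.17 in cKO eyes, an overlapping change of 0.23 ± 0.14. The proneural factor Neurod1 stood at 0.04 ± 0.18 on the probe set used and at 0.56 ± 0.29 on its other probe set, with overlapping groups on both. Thrb, the thyroid hormone receptor of cones, read 2.67, 3.32, 2.59 and 2.74 in wildtype and 2.79, 2.68, 2.74 and 2.92 in cKO eyes, close to the low end of the scale. Its change was -0.05 ± 0.17, and 0.16 under quantile normalization of all arrays.

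The transduction genes had a median change of 0.34 (log2), with 9 of 12 above 0, and Gnb3 came closest of all members to the threshold. Gnb3 encodes the transducin beta subunit of cones, which ON bipolar cells also use. It read 9.58, 9.53, 9.44 and 9.55 in wildtype and 10.29, 10.26, 10.42 and 10.52 in cKO eyes. The 2 groups were tight and lay apart by more than their whole ranges. The change was 0.85 ± 0.12 (SE; 95% confidence interval 0.58 to 1.11), a fold of 1.80, with a limma adjusted p of 0.054 that ran from 0.0197 to 0.267 over the alternatives tried. With Snf2h cKO 1 and 2 averaged the Gnb3 change was 0.88 (limma adjusted p = 0.209).

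The phosphodiesterase genes of rods and cones spread widely between arrays. Pde6b, a catalytic subunit of rods, read 6.26, 6.68, 7.42 and 6.65 (log2) in wildtype and 7.28, 7.71, 6.84 and 8.88 in cKO eyes, with a change of 0.93 ± 0.41 (SE; limma adjusted p = 0.292). Its high value came from Snf2h cKO 4, without which the change was 0.53. Pde6h, the inhibitory subunit of cones, read 8.94, 8.80, 7.94 and 8.11 in wildtype and 9.58, 9.48, 8.37 and 9.65 in cKO eyes. Here Snf2h cKO 3 lay low and inside the wildtype range, and the change was 0.82 ± 0.33 (limma adjusted p = 0.26). The cone catalytic subunit Pde6c had a change of 0.46 ± 0.30 and the rod inhibitory subunit Pde6g 0.60 ± 0.28, with 1.01 on its other probe set. Pde6a, the partner of Pde6b in rods, stood at -0.15 ± 0.13 with group means of 2.49 and 2.34, near the low end of the scale.

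Opn1sw, the short-wavelength cone opsin, read 8.70, 9.13, 8.69 and 8.98 (log2) in wildtype and 9.13, 9.20, 9.76 and 9.34 in cKO eyes. The lowest cKO array equalled the highest wildtype array at this rounding, and the change was 0.48 ± 0.18 (SE; limma adjusted p = 0.238), while the other Opn1sw probe set gave -0.03. Opn1mw, the medium-wavelength opsin, had group means of 3.03 and 2.87 and a change of -0.16 ± 0.15. The cone transducin alpha gene Gnat2 read 8.57, 8.53, 8.50 and 8.56 in wildtype and 8.76, 8.66, 8.55 and 8.75 in cKO eyes, a change of 0.14 ± 0.11. Its rod counterpart Gnat1 read 4.34, 5.52, 5.44 and 4.16 in wildtype and 4.12, 4.36, 4.79 and 5.89 in cKO eyes, a change of -0.07 ± 0.43. Gnat2 was thus tight within both groups, whereas Gnat1 spread widely within each. The rod gamma subunit Gngt1 and the rod channel gene Cnga1 stood at 0.12 ± 0.42 and 0.21 ± 0.40.

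The 6 shutoff and feedback genes had a median change of 0.68 (log2), and all 6 were above 0; with an offset of 50 added before log2 the median was 0.437. Recoverin, the calcium sensor encoded by Rcvrn, read 6.84, 7.17, 6.14 and 7.17 in wildtype and 7.30, 7.49, 7.33 and 8.49 in cKO eyes. The groups were separate by a small gap, and Snf2h cKO 4 lay far above the other 3 cKO arrays. The change was 0.82 ± 0.31 (SE; limma adjusted p = 0.248), and 0.54 without that array. Guca1b, a guanylate cyclase activator, read 5.02, 4.89, 4.86 and 5.10 in wildtype and 6.02, 5.67, 5.48 and 5.47 in cKO eyes. Its groups did not overlap and its change was 0.69 ± 0.15 (limma adjusted p = 0.156), but the other Guca1b probe set gave -0.14.

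Both arrestin genes read higher on average in Snf2h cKO eyes, with overlap between the groups. Sag, the rod arrestin, read 9.78, 10.53, 10.39 and 10.09 (log2) in wildtype and 10.47, 10.46, 11.02 and 11.49 in cKO eyes, a change of 0.66 ± 0.26 (SE; limma adjusted p = 0.257). Arr3, the cone arrestin, read 4.51, 4.25, 4.74 and 3.84 in wildtype and 4.91, 5.26, 4.65 and 5.71 in cKO eyes, a change of 0.80 ± 0.26 (limma adjusted p = 0.206), and its other probe set gave 0.60. Guca1a stood at 0.36 ± 0.30. Pdc, or phosducin, which binds transducin beta and gamma subunits, stood at 0.60 ± 0.51 with 1 low array in each group.

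The outer segment, trafficking and retinoid genes had a median of 0.58 (log2), with 7 of 8 above 0, and 4 of the 8 had separate groups. Rom1, a tetraspanin of the disc rim, read 8.37, 9.05, 8.42 and 9.12 in wildtype and 9.31, 9.38, 9.88 and 10.34 in cKO eyes. Every cKO array was above every wildtype array, and the change was the largest among the members, 0.99 ± 0.27 (SE; limma adjusted p = 0.17), a fold of 1.99. Tulp1, which acts in the transport of proteins to the outer segment, read 6.93, 7.31, 7.04 and 7.08 in wildtype and 7.67, 7.95, 8.21 and 8.25 in cKO eyes. Its groups were clearly apart, with a change of 0.93 ± 0.16 (limma adjusted p = 0.101) and a fold of 1.90.

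Unc119, a carrier of lipid-modified transducin, read 9.23, 9.66, 9.55 and 9.45 (log2) in wildtype and 9.99, 10.02, 9.90 and 10.03 in cKO eyes. The cKO arrays lay within a narrow band above all wildtype arrays, and the change was 0.51 ± 0.13 (SE; limma adjusted p = 0.163). Abca4, which clears retinoid from the discs, read 9.33, 9.64, 9.35 and 9.63 in wildtype and 9.72, 9.82, 10.23 and 10.49 in cKO eyes, a change of 0.58 ± 0.19 without overlap (limma adjusted p = 0.21). Prph2, the other rim tetraspanin, had a change of 0.95 ± 0.35 in which Snf2h cKO 4 read 7.22 and the other 3 cKO arrays 5.30 to 6.09. Rp1, of the outer segment axoneme, stood at 0.34 ± 0.33, with -0.53 on its other probe set, and the retinol dehydrogenase gene Rdh12 at 0.58 ± 0.29. Aipl1, a chaperone of the phosphodiesterase, stood at -0.02 ± 0.24, while its other probe set gave 0.89 with separate groups.

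**Figure D2:**
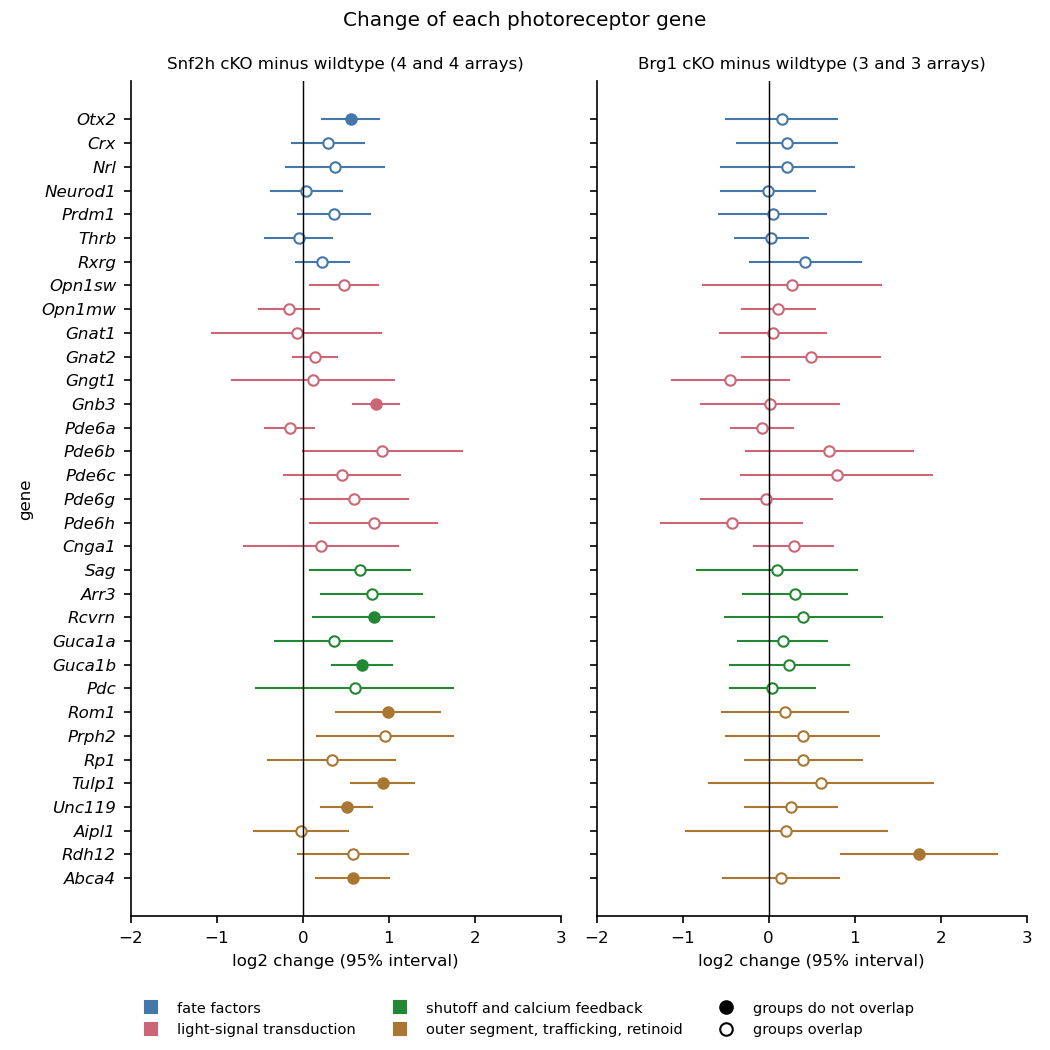
Log2 change (cKO minus wildtype) of each measured member with its 95% confidence interval, coloured by role, with the Snf2h comparison on the left and the Brg1 comparison on the right; filled points have groups that do not overlap. On the left 28 of 33 points lie above 0 and Gnb3 has an interval of 0.58 to 1.11, and on the right most intervals span 0 and Rdh12 (1.75) lies farthest from it.

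By cell class, the 7 rod members had a median change of 0.21 (log2) in Snf2h cKO eyes, the 9 cone members 0.46 and the 17 members of both or other cells 0.58. The rod class held Nrl, Gnat1, Gngt1, Pde6a, Pde6b, Pde6g and Cnga1. In the cone class were Thrb, Rxrg, Opn1sw, Opn1mw, Gnat2, Gnb3, Pde6c, Pde6h and Arr3. Sag was counted with both or other cells. Mean levels over all arrays were low (log2) for the rod members Gnat1 (4.34), Cnga1 (3.38) and Pde6a (2.33). They were also low for the cone members Arr3 (4.03), Opn1mw (3.01) and Thrb (2.65). The arrays behaved differently in the 2 classes. For cone members the 4 cKO arrays stood at 0.25, 0.33, 0.32 and 0.34 from the wildtype mean, and the 4 wildtype arrays at 0.05, -0.01, -0.04 and -0.09. For rod members the cKO arrays stood at -0.16, -0.09, 0.09 and 1.12, and the wildtype arrays at -0.36, 0.24, 0.44 and -0.31. The cone median was thus alike on all 4 cKO arrays, whereas the rod median lay above the wildtype range on Snf2h cKO 4 alone. The difference between the classes was not tested.

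In Brg1 cKO eyes the 3 arrays differed in the direction of the photoreceptor genes. The change was above 0 in 28 of 33 members (84.8%), where 52.8% of all genes were above 0, and the median was 0.21 (log2) against 0.02 over all genes. At an adjusted p under 0.05, limma called 0 members and 135 of all genes (1.09%), and at an unadjusted p under 0.05 only Rdh12 was higher and 0 members were lower, against 5.45% and 3.77% of all genes. Rdh12 was also the only member whose groups did not overlap, which 8.28% of all genes showed in the higher direction and 6.25% in the lower. The 3 cKO arrays stood at 0.72, -0.18 and 0.09 from the wildtype mean over the members, and the 3 wildtype arrays at -0.09, 0.08 and 0.04. Brg1 cKO 1 was the highest cKO array for 30 of 33 members (90.9%), against 38.7% of all genes, and Brg1 cKO 2 the lowest for 24 (72.7%), against 36.6%. Without Brg1 cKO 1, 14 members were above 0 and the median was -0.035; without Brg1 cKO 2 the median was 0.40.

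The same order of arrays ran through every role. Tulp1 read 6.50, 5.85 and 6.00 (log2) in the 3 wildtype and 7.86, 5.43 and 6.89 in the 3 cKO eyes. Gnb3 read 9.16, 9.32 and 9.41 in wildtype and 10.06, 8.61 and 9.27 in cKO eyes, so that its cKO arrays lay above, below and within the wildtype range. Their changes were 0.61 ± 0.56 (SE; n = 3 and 3; limma adjusted p = 0.833) and 0.02 ± 0.34 (limma adjusted p = 0.994). Opn1sw read 8.70, 8.94 and 8.66 in wildtype and 9.74, 7.93 and 9.46 in cKO eyes, a change of 0.28 ± 0.44. Nrl read 9.07, 9.19 and 9.26 in wildtype and 10.03, 8.65 and 9.50 in cKO eyes, a change of 0.22 ± 0.33. In both genes the wildtype arrays were close together and the cKO arrays reached above and below all of them. All 7 fate factors were highest in Brg1 cKO 1, and 6 of the 7 were lowest in Brg1 cKO 2.

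Of the remaining roles, the outer segment, trafficking and retinoid genes had a median of 0.33 (log2) with 8 of 8 above 0, the shutoff genes 0.20 with 6 of 6, the fate factors 0.15 with 6 of 7 and the transduction genes 0.08 with 8 of 12. Gnat2 had a change of 0.49 ± 0.34 (SE; limma adjusted p = 0.768), Pde6b 0.71 ± 0.42 (0.721) and Rxrg 0.43 ± 0.28 (0.756). Without Brg1 cKO 1 these changes were 0.12, 0.295 and 0.149, and that of Tulp1 was 0.041. Pde6h and Gngt1 had the lowest values, -0.43 ± 0.35 (0.804) and -0.45 ± 0.29 (0.758). Otx2 stood at 0.15 ± 0.28 and Crx at 0.21 ± 0.25.

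Rdh12, whose product reduces retinal and other aldehydes in photoreceptor inner segments, broke the pattern of the arrays. It read 4.47, 4.66 and 4.78 (log2) in wildtype and 6.00, 7.35 and 5.82 in cKO eyes. Its highest value came from Brg1 cKO 2, the array on which most other members were lowest, and every cKO array lay above every wildtype array. The change was 1.75 ± 0.39 (SE; 95% confidence interval 0.84 to 2.66; limma adjusted p = 0.122), a fold of 3.37. Over the alternatives tried, the change ran from 0.873 to 2.038 and its limma adjusted p from 0.0226 to 0.591. Mean levels over all arrays were low, at 5.07 (log2) on this probe set and 4.45 on the other. Both lay below the filter on the median level of all probe sets. The other Rdh12 probe set gave 0.89 ± 0.37 (limma adjusted p = 0.591), also without overlap and also highest in Brg1 cKO 2. Opn1mw and Abca4 were the only other members highest on that array.

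**Figure D3:**
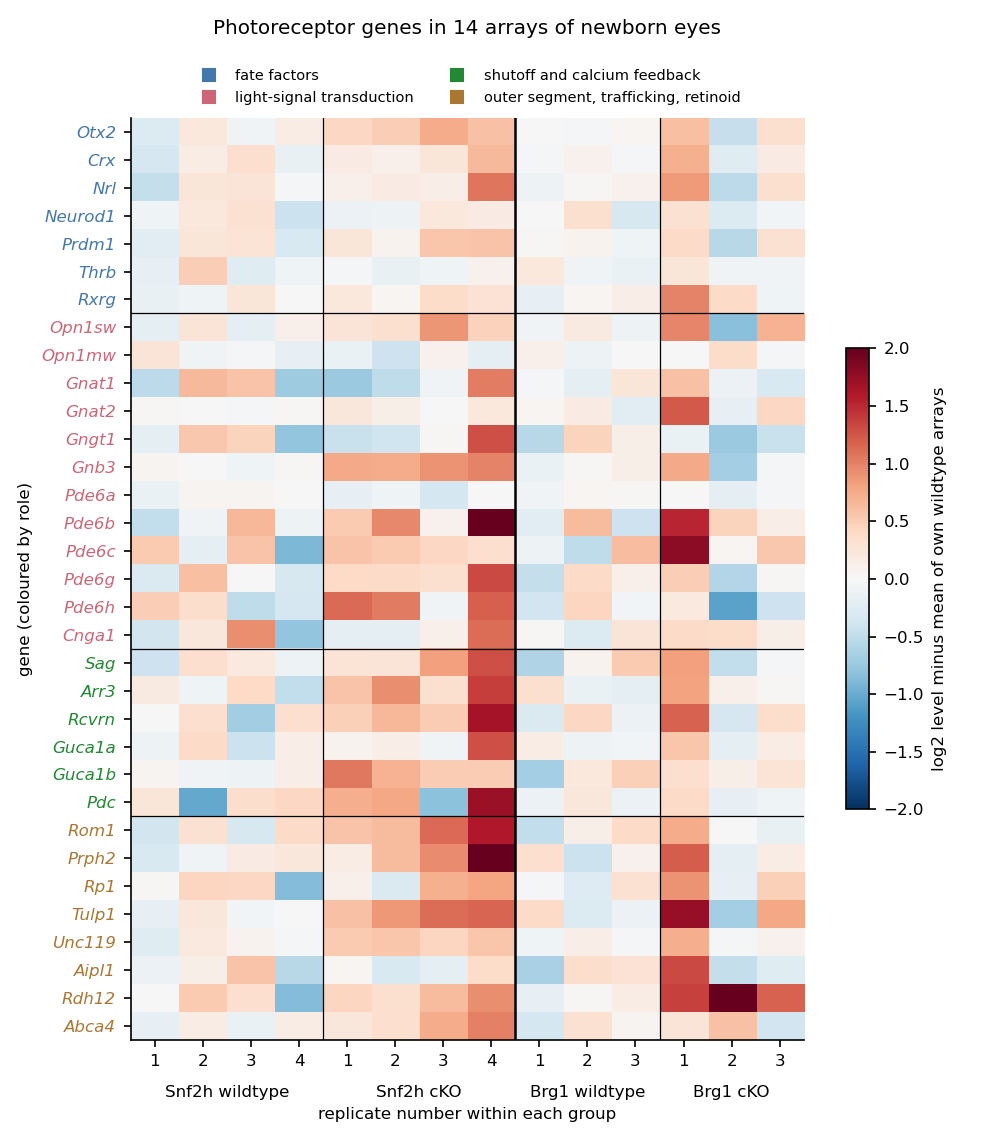
Log2 level of each measured member on each of the 14 arrays minus the wildtype mean of the same experiment, members in rows by role and arrays in columns by group; the colour scale ends at 2 log2 units. Snf2h cKO 4 and Brg1 cKO 1 show as columns above the wildtype mean through most rows, Brg1 cKO 2 as a column below it, and Rdh12 as a row above it in all 3 Brg1 cKO eyes.

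Marker genes of other cells were read on the same arrays, and their part in the member values was not tested. In the Brg1 experiment the 14 lens fibre genes were below 0 in 14 of 14. Of these, 3 were called lower, against 0.476% of all genes. Their summed intensity was 82231 to 91886 in wildtype and 11907 to 51775 in cKO eyes. The 17 macrophage and neutrophil genes were above 0 in 17 of 17, and 5 were called higher, against 0.613% of all genes. Their sums were 1903 to 2575 in wildtype and 8173 to 25283 in cKO eyes. Of 20 surface epithelium genes, 4 were called higher and 1 lower, with changes from -3.697 to 6.746. Of 25 ganglion, amacrine and horizontal cell genes, 1 was called higher and 0 lower. On Brg1 cKO 1, 2 and 3 the macrophage and neutrophil medians stood at 0.80, 1.80 and 1.22. The retinal progenitor genes stood at 0.17, -0.52 and -0.14 on the same 3 arrays, and the ganglion, amacrine and horizontal cell genes at 0.29, -0.44 and 0.17, both in the order of the photoreceptor members. Genes of pigment epithelium and melanocytes had the same order at 0.26, -0.03 and 0.07. Genes of the stroma, at -0.48, 0.31 and 0.18, and of the surface epithelium, at -0.41, 0.43 and 0.14, had the opposite order. Lens fibre genes, at -2.63, -1.01 and -3.88, had neither order and were least reduced on Brg1 cKO 2. In the Snf2h experiment, ganglion, amacrine and horizontal cell genes were above 0 in 16 of 25, with sums of 18812 to 21079 in wildtype and 23339 to 25264 in cKO eyes and a median of 0.11; their median on Snf2h cKO 4, 0.30, was the highest of the 4 cKO arrays. Progenitor genes were above 0 in 7 of 15, with sums of 18116 to 20227 and 18918 to 21358. The lens fibre genes were above 0 in 3 of 14. They stood at -0.45, -0.41, -0.05 and 0.09 on the 4 Snf2h cKO arrays, with wildtype arrays at -0.31 to 0.17. Macrophage and neutrophil genes stood at 0.59, 0.52, -0.33 and -0.12 on the cKO arrays, with wildtype arrays at -0.30 to 0.51. Genes of the stroma were above 0 in 1 of 16, with sums of 27023 to 39206 and 25660 to 28262 and a median of -0.40. The 20 surface epithelium genes had a median of -0.42 and stood at -0.25, -0.35, -0.54 and -1.22 on the 4 cKO arrays, lowest on Snf2h cKO 4, while the 13 genes of pigment epithelium and melanocytes were highest on it, at 0.25. Bipolar cell genes were above 0 in 3 of 10 in each experiment. Muller glia genes were above 0 in 4 of 8 in the Snf2h and 5 of 8 in the Brg1 experiment.

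A separate list of 29 other genes expressed in photoreceptors had medians near 0 in both comparisons, but followed the same single arrays. It stood at -0.01, -0.03, -0.03 and 0.21 (log2) on the 4 Snf2h cKO arrays, where wildtype arrays ran from -0.25 to 0.23, and at 0.33, -0.34 and -0.01 on the 3 Brg1 cKO arrays, where wildtype arrays ran from -0.02 to 0.02. Snf2h cKO 4 and Brg1 cKO 1 were again the highest of their groups and Brg1 cKO 2 the lowest. In Snf2h cKO eyes 17 of 29 were above 0 with a median of 0.04 (log2), limma called 0 of them, and at an unadjusted p under 0.05, 1 was higher and 1 was lower. Those were Crb1, a polarity gene of the photoreceptor membrane, at 0.78 ± 0.22 (SE; limma adjusted p = 0.178) and Rp2, a trafficking gene, at -0.66 ± 0.23 (0.219). In Brg1 cKO eyes 13 of 29 were above 0 with a median of -0.02, limma called 0, and 1 was higher and 1 lower at an unadjusted p under 0.05. These were Cdhr1, a cadherin of the outer segment base, at 0.53 ± 0.23 (limma adjusted p = 0.539) and Arl3, a small GTPase of ciliary transport, at -0.52 ± 0.19 (0.423).

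The knockout effects were compared directly by an interaction term, the Snf2h change minus the Brg1 change. It called 0 members and 115 of all genes (0.928%). At an unadjusted p under 0.05, 2 members were higher and 1 was lower, against 4.58% and 7.46% of all genes. Gnb3 differed by 0.83 ± 0.35 (log2, SE; limma adjusted p = 0.358), Pde6h by 1.25 ± 0.52 (limma adjusted p = 0.358) and Rdh12 by -1.17 ± 0.51 (limma adjusted p = 0.377). The interaction was above 0 in 22 of 33 members, with a median of 0.22, against 43.6% of all genes. The Gnb3 difference was 1.204 without Brg1 cKO 1 (limma adjusted p = 0.0247) and 0.479 without Brg1 cKO 2, and over all arrays left out in turn its adjusted p ran from 0.0247 to 0.591. The Rdh12 difference was -0.69 without Brg1 cKO 2.

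Wildtype eyes of the 2 experiments also differed in these genes. Strain and experiment cannot be told apart here, so the values are a description without a test. In 17 of 33 members (51.5%) every Brg1 wildtype array read below every Snf2h wildtype array, against 26.2% of all genes, and in 3 members (9.09%) every one read above, against 18.9%. The median difference over members was -0.64 (log2) and over all genes -0.15. Genes of pigment epithelium and melanocytes were lower in 46.2% and higher in 7.69%, with a median of -0.57. The other photoreceptor genes had 34.5%, 24.1% and -0.38, and ganglion, amacrine and horizontal cell genes 28%, 24% and 0.23. Gapdh 3′ minus 5′ signal was 1.09 to 4.47 in Snf2h wildtype and 0.68 to 0.74 in Brg1 wildtype eyes, and its part was not tested. Pde6c, the cone phosphodiesterase, averaged 7.61 ± 0.70 (SD, n = 4) in Snf2h wildtype and 5.83 ± 0.57 (SD, n = 3) in Brg1 wildtype eyes. Aipl1 averaged 8.35 ± 0.46 and 6.42 ± 0.55, and Nrl 10.52 ± 0.35 and 9.17 ± 0.09. The 3 members that were higher in Brg1 wildtype eyes were Otx2, by 0.42, Prdm1, by 0.54, and Pdc, by 0.98. Among fate factors, 3 of 7 were lower without overlap, and among the other members 14 of 26.

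**Figure D4:**
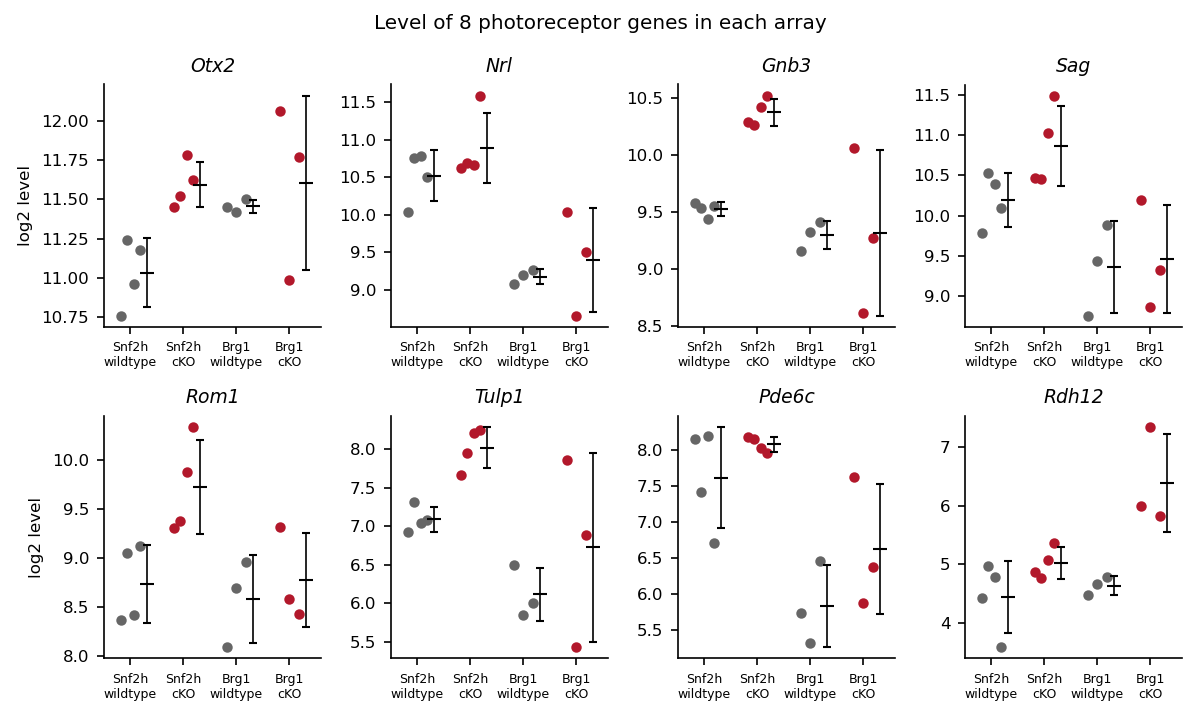
Log2 level of 8 members on every array, 1 panel per gene with its own scale and 1 point per array; the black bar beside each group is its mean ± SD. Otx2, Gnb3, Rom1 and Tulp1 separate Snf2h cKO from wildtype without overlap, and Rdh12 separates Brg1 cKO from wildtype. The Brg1 cKO arrays of Gnb3 span 8.61 to 10.06 around wildtype arrays at 9.16 to 9.41.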

How the data were processed

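Whole-eye RNA of 14 samples was measured on 1-colour arrays with 22690 probe sets. The deposited values are linear intensity values made by the authors with RMA, per the submitters' processing notes; its version, and whether both experiments were normalized together, are not given in the sources used here. Log2 was taken with no offset. After 64 control probe sets were left out, 20380 named 1 gene, 691 several and 1555 none; those naming 1 gene were used, and each of 12393 genes was represented by its probe set of highest mean level over all arrays. The groups were those of the labels. Each experiment was fitted on its own in limma 3.58.1 (R 4.3.3), and the interaction on all 14 arrays; moderated tests were two-sided with Benjamini-Hochberg adjustment over all genes, and the procedure was tested on simulated data. Array number limits the precision. The members and lists were chosen with earlier results of these data known. Single-array values were printed for members called in any comparison, for up to 4 of each role with the smallest p in either knockout comparison and for defining genes of rods and cones; those of Abca4, Prph2 and Pdc were added after their values were seen. Of the other photoreceptor genes, up to 4 per comparison with the smallest p could be named. Alternatives covered normalization, a filter on dim probe sets (log2 6.87), offset, probe-set choice, variance settings, array weights, 1 joint fit, replicate blocks and leaving out each array. Samples with the same replicate number did not deviate together (0 correlations above 0.1), so no pairing was used. Promoter sequences came from RefSeq (GRCm38.p6).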

Additional observations from a re-analysis of the deposited data

Results flagged for a closer look

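Among 40 groups of 4 arrays tested for a single array far from the other 3, 3 stood out, where chance alone flags about 1 in 20 groups. The count lies near that rate. The groups share the same arrays and many of their genes were chosen by smallest p, so the rate is only a guide. Nrl read 11.59 (log2) in Snf2h cKO 4 and 10.62 to 10.69 in the other Snf2h cKO eyes. Rcvrn read 8.49 in Snf2h cKO 4 and 7.30 to 7.49 in the others. Pde6h read 8.37 in Snf2h cKO 3, below the 9.48 to 9.65 of the others.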

How the results depend on the processing

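Of all genes, 2 were called in the Snf2h comparison. The count was 1 under quantile normalization of all arrays, 5 when dim probe sets were dropped, 0 with all probe sets, 6 with an offset of 50, 7 with a trended robust variance, 230 with array weights, 4 in 1 joint fit and 0 with Snf2h cKO 1 and 2 averaged. It ran from 0 (without Snf2h cKO 1 or 2) to 60 (without Snf2h wildtype 1) when single arrays were left out. Of the members, 1 was called with the dim filter, the offset or the robust variance (Gnb3, adjusted p = 0.0253, 0.0197 and 0.0264), 2 with array weights (Gnb3, 0.022, and Guca1b, 0.0484) and 0 to 1 with an array left out (Gnb3, 0.0401 without Snf2h wildtype 1). The 135 genes of the Brg1 comparison became 19 with the dim filter, 13 with the offset, 209 with array weights, 260 in 1 joint fit and 26 to 215 with an array left out. Members called there numbered 1 in the joint fit (Rdh12, 0.0274) and 0 to 1 with an array left out (Rdh12, 0.0226, change 1.27, without Brg1 cKO 2). Members above 0 were 16 with the dim filter, which tests 20, and 14 to 28 with an array left out, and their median ran from -0.035 to 0.398. The 115 genes of the interaction became 13 with the dim filter, 47 with the offset, 174 with array weights and 68 to 162 with an array left out, with 0 to 1 members called, 17 to 29 above 0 and a member median of 0.012 to 0.485. The limma fits with the replicate number as a block called 0 genes (Snf2h), 49 (Brg1) and 79 (interaction) and 0 members; the numbers do not pair the samples. The cause of these differences was not tested, beyond fewer genes or arrays where the setting itself leaves them out.

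Role medians with an array left out ran in the Brg1 comparison from -0.074 to 0.436 (fate), -0.091 to 0.252 (transduction), -0.009 to 0.372 (shutoff) and 0.034 to 0.615 (outer segment), and in the interaction from -0.132 to 0.329, -0.151 to 0.361, 0.24 to 0.733 and -0.111 to 0.484. In the Snf2h comparison they kept their sign, at 0.172 to 0.406, 0.15 to 0.469, 0.499 to 0.841 and 0.48 to 0.692, and the member median ran from 0.36 to 0.532 with 25 to 31 members above 0. With the offset, the Snf2h medians were 0.437 for shutoff and 0.496 for outer segment genes, against 0.677 and 0.58 without it, so their order turned. Brg1 changes that kept their sign but shrank by over 1.5 times without Brg1 cKO 1 included those of Gnat2 (0.12), Pde6b (0.295), Rxrg (0.149) and Tulp1 (0.041).

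The change of some single members turned sign with another normalization, array weights, another probe set, the averaged pair or an array left out. In the Snf2h comparison Thrb read 0.159 and 0.156 under quantile normalization over all arrays and within the experiment, Gnat1 0.11 with Snf2h cKO 1 and 2 averaged, and the other probe sets of Opn1sw and Guca1b -0.029 and -0.14. In the Brg1 comparison the other probe sets of Opn1sw and Arr3 gave -0.197 and -0.085, and Gnat1 -0.045 with array weights. With an array left out, Snf2h changes ran from -0.129 to 0.115 for Thrb and -0.441 to 0.152 for Gnat1. Brg1 changes ran from -0.357 to 0.367 for Gnb3, -0.098 to 0.474 for Guca1b, -0.264 to 0.398 for Sag, -0.082 to 0.381 for Rom1, -0.074 to 0.136 for Thrb, -0.212 to 0.23 for Gnat1, -0.074 to 0.462 for Otx2, -0.125 to 0.35 for Prdm1, -0.035 to 0.436 for Crx, -0.074 to 0.832 for Opn1sw and -0.101 to 0.591 for Nrl. For each of these Brg1 ranges the lowest value came without Brg1 cKO 1, except for Guca1b, where it came without Brg1 wildtype 1. Of 13 other probe sets in 11 members, 8 had the sign of the one used and 5 the opposite in each knockout comparison. The number of arrays, 3 or 4 a group, limits what the comparisons can show, and probe sets near the low end of the scale (Thrb, Opn1mw, Pde6a) carry little signal.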
